A study of Homo sapiens with 12 samples.

Results

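The genes described here are the messages for the transcription coactivators YAP (YAP1) and TAZ (WWTR1), for their DNA-binding partners TEAD1 and TEAD4, for the matricellular targets CCN1 and CCN2 and the nuclear target ANKRD1, and for the pathway regulators AMOTL2, LATS2 and AJUBA. They were found by symbol among 16299 Ensembl genes, and all 10 were present and passed the filter for testing. Their RNA was sequenced after poly-A capture in 12 libraries of 2 established human pancreatic cancer cell lines embedded in hydrogels. The 6 groups, with 2 libraries each, were PANC1 in 7.5% GelMA, PANC1 in 5% GelMA, PANC1 in collagen, BXPC3 in 7.5% GelMA, BXPC3 in 5% GelMA and BXPC3 in collagen. GelMA is gelatin methacryloyl, a cross-linkable gel made from denatured collagen. Both lines were grown in high-glucose medium with serum, and no drug or genetic change is named for any group. Gel stiffness and time in culture were not stated in those labels. Nothing in them says that replicates came from separate cultures, so p-values measure only the spread between libraries, which may be technical. In bulk RNA, fewer cells expressing a gene and less RNA per cell cannot be told apart.

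YAP and TAZ carry mechanical signals from the cell's surroundings to the nucleus. The Hippo kinases, ending in LATS1 and LATS2, phosphorylate both proteins and hold them in the cytoplasm, and without that phosphorylation they bind TEAD factors and raise transcription of genes such as CCN1, CCN2 and ANKRD1. Control is thus mainly over the location and stability of the YAP and TAZ proteins, which RNA sequencing does not measure. AMOTL2 and LATS2 are both inhibitors of YAP and among its targets, and are known as negative feedback.

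Values are log2 RPKM, that is, read density per gene length and library size on a log2 scale, in which 1 unit is a doubling. The deposited values were also taken as quantile normalized (see the processing section), so levels and fold differences are on that adjusted scale. Differences are in log2 units ± the standard error (SE) of a limma model over all 12 libraries, and a gene was called at a Benjamini-Hochberg adjusted p under 0.05 over 15794 genes. The labels held in the data: SMAD4, which is deleted in BXPC3, was at 3.94 to 4.55 log2 RPKM in PANC1 and at -5.92 to -5.35 in BXPC3, and all 5 epithelial markers (KRT8, KRT18, KRT19, EPCAM, CDH1) were at 3.71 or above in PANC1 and at 5.92 or above in BXPC3. The paired libraries had Pearson's r from 0.9922 to 0.995 over genes, which are not independent, and the depth of each library is unknown. PTPRC and CD68 (immune), CDH5 (endothelial) and DCN, LUM, COL1A2 and PDGFRB (fibroblast) were not among the genes analysed here. The other 3 of 7 fibroblast markers (COL1A1, COL3A1, PDGFRA) ran from -4.94 to 8.71 log2 RPKM in PANC1 and from 1.52 to 3.47 in BXPC3. In PANC1 GelMA, COL1A1 rose by 1.66 ± 0.06 (adjusted p = 2.97e-08), COL3A1 fell by 2.62 ± 0.10 (adjusted p = 4.77e-08), and PDGFRA rose by 1.34 ± 0.20 (adjusted p = 0.00027) with at most 0.111 RPKM. In BXPC3 GelMA, COL1A1 rose by 0.20 ± 0.06 (adjusted p = 0.023). The other 3 of 5 immune markers ran from -5.58 to 3.08 log2 RPKM in PANC1 and from -0.57 to 4.41 in BXPC3, where CD14 was highest and all 3 had a mean of at least 1 RPKM. The other 3 of 4 endothelial markers ran from -4.94 to 0.35 in PANC1, where 0 had a mean of at least 1 RPKM. In BXPC3 they ran from -5.49 to 1.44, and 2 had such a mean. The part of these markers in the results was not tested.

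The coactivator messages were abundant, with YAP1 0.26 and WWTR1 1.40 log2 units higher in PANC1 than in BXPC3. The 3 targets CCN1, CCN2 and ANKRD1 differed more between the lines. Over all matrices, CCN1 averaged 10.06 log2 RPKM in PANC1 and 7.76 in BXPC3. CCN2 averaged 8.56 log2 RPKM in PANC1 and 1.28 in BXPC3, which placed it above 98.2% of the table's genes in PANC1 and above 21.2% in BXPC3. ANKRD1 had the opposite order, with -0.05 log2 RPKM in PANC1 and 3.33 in BXPC3.

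**Figure D1:**
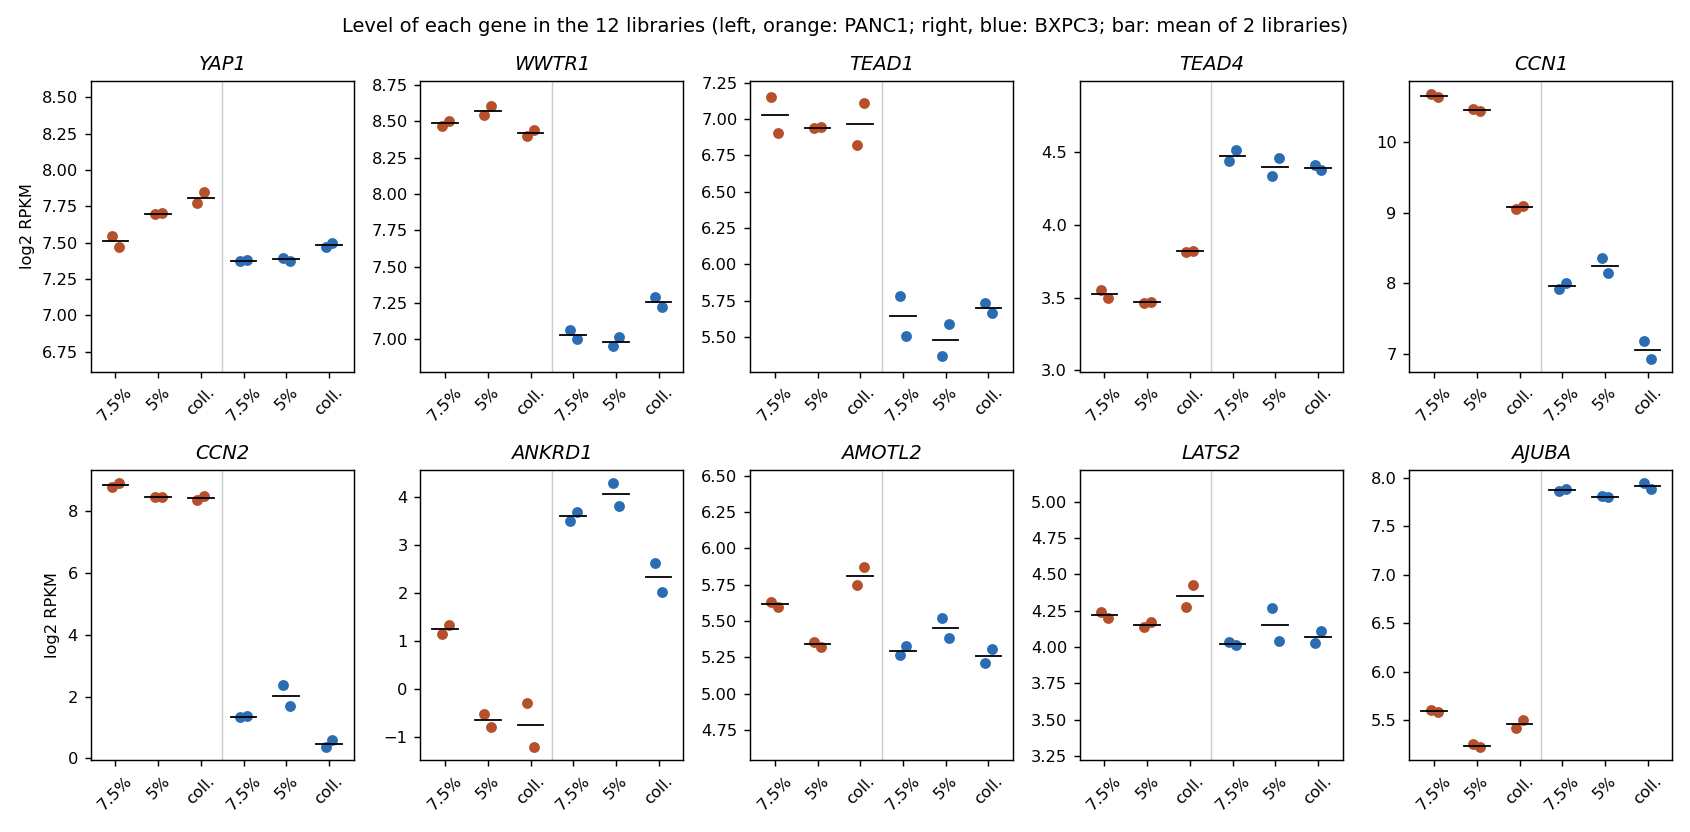
Level of each of the 10 genes in every library (log2 RPKM, 1 panel per gene, each with its own axis of at least 2 units). In each panel the 3 PANC1 groups (orange) stand left of the 3 BXPC3 groups (blue), in the order 7.5% GelMA, 5% GelMA and collagen; points are libraries and bars are group means of 2. CCN1 was higher in GelMA than in collagen in both lines, CCN2 separated the lines most, and ANKRD1 stood out in PANC1 at 7.5% GelMA.

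CCN1 (ENSG00000142871, chromosome 1, 85580761 to 85583962 on GRCh38) encodes a secreted protein of the matrix that binds integrins. In PANC1 it was at 10.67 and 10.63 log2 RPKM in 7.5% GelMA, at 10.46 and 10.44 in 5% GelMA, and at 9.05 and 9.10 in collagen. In BXPC3 the libraries had 7.93 and 8.0 in 7.5% GelMA, 8.35 and 8.15 in 5% GelMA, and 7.19 and 6.94 in collagen. Every GelMA library of a line lay above both of its collagen libraries, and none of the 6 groups overlapped another. The GelMA percentages stood in opposite order in the lines: the higher pair was at 7.5% in PANC1 and at 5% in BXPC3.

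CCN1 was thus 2.78-fold higher in GelMA than in collagen in PANC1 (1.48 ± 0.07, adjusted p = 1.37e-07) and 2.06-fold higher in BXPC3 (1.04 ± 0.07, adjusted p = 1.21e-05). The PANC1 rise exceeded the BXPC3 rise by 0.43 ± 0.10 (interaction, adjusted p = 0.00652). These rises kept their call under all alternatives of processing and with any 1 library left out.

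CCN2 (ENSG00000118523, chromosome 6, 131948176 to 131951373), the connective tissue growth factor, is a matricellular gene of fibrosis and the best known readout of YAP activity. PANC1 libraries had 8.78 and 8.90 log2 RPKM in 7.5% GelMA, 8.45 and 8.44 in 5% GelMA, and 8.34 and 8.47 in collagen. BXPC3 libraries had 1.34 and 1.37 in 7.5% GelMA, 2.36 and 1.69 in 5% GelMA, and 0.36 and 0.59 in collagen. In BXPC3 all GelMA libraries were above both collagen libraries, while in PANC1 the 5% libraries fell within the collagen range and the 7.5% libraries were above it.

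In BXPC3, CCN2 rose 2.32-fold in GelMA (1.21 ± 0.15, adjusted p = 0.000224). In PANC1 the difference was 0.24 ± 0.15 (95% confidence interval -0.09 to 0.56, adjusted p = 0.196). The SE and interval rest on 1 spread shared by all groups, not on that of PANC1. The standard deviation of CCN2 was 0.47 in BXPC3 5% GelMA and 0.007 to 0.089 in the PANC1 groups. The GelMA effect in PANC1 minus that in BXPC3 was -0.98 ± 0.21 (adjusted p = 0.00425). On the log2(RPKM + 1) scale the BXPC3 rise was 0.83 (adjusted p = 0.000329) and the difference between the lines -0.60 (adjusted p = 0.0126). The PANC1 difference was called at the same 0.24 in a fit to the PANC1 libraries alone (adjusted p = 0.0038), and when BXPC3 5% GelMA replicate 1 (0.0155) or replicate 2 (0.0152) was left out.

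ANKRD1 (ENSG00000148677, chromosome 10, 90912096 to 90921276) encodes an ankyrin repeat protein of the nucleus and sarcomere that is induced by stretch in muscle. It was at 1.16 and 1.34 log2 RPKM in PANC1 in 7.5% GelMA, at -0.51 and -0.79 in 5% GelMA, and at -0.28 and -1.21 in collagen. The corresponding BXPC3 libraries had 3.51 and 3.68 in 7.5% GelMA, 4.29 and 3.82 in 5% GelMA, and 2.62 and 2.03 in collagen. In PANC1 only the 7.5% pair was above the collagen libraries, and the 5% pair lay inside their range. In BXPC3 both GelMA pairs were above collagen.

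ANKRD1 rose in GelMA by 1.04 ± 0.26 in PANC1 (adjusted p = 0.0071) and by 1.499 ± 0.26 in BXPC3 (adjusted p = 0.00187). In PANC1 it was at 2.23 and 2.53 RPKM in 7.5% GelMA and under 1 RPKM in every 5% GelMA and collagen library, where log2 values depend on the offset added before the log. On the log2(RPKM + 1) scale the rise was 0.54 (adjusted p = 0.0138). Without PANC1 collagen replicate 2 it was 0.58 (adjusted p = 0.0969). The effects in the lines differed by -0.46 ± 0.37 (PANC1 minus BXPC3, adjusted p = 0.365), with a 95% confidence interval of -1.29 to 0.38. On the log2(RPKM + 1) scale that difference was -0.79 (adjusted p = 0.0162).

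TEAD factors bind DNA at the core letters GGAATG, so the 250 bases before the RefSeq start sites (GRCh38.p14) of these genes were searched for it on both strands. The table held promoters of 7 of the 10 genes, and CCN1, TEAD1 and TEAD4 had none in it. CCN2 and ANKRD1 held more than 1 match each and are printed on the coding strand, 5′ to 3′, with the matches in capitals. CCN2 lies at chr6:131951373-131951622 on the minus strand and ANKRD1 at chr10:90921088-90921337, also on the minus strand.
CCN2: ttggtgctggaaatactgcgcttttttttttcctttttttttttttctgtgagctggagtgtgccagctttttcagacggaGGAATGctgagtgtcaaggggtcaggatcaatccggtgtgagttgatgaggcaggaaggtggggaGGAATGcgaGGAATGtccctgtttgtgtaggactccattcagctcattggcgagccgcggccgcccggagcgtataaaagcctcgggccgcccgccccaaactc
ANKRD1: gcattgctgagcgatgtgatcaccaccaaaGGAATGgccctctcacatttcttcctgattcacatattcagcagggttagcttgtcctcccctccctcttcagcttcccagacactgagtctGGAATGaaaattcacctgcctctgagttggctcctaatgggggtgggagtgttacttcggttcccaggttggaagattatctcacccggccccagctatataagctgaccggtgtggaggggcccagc
The CCN2 matches began 169, 104 and 95 bases before the start site, and those of ANKRD1 began 220 and 128 bases before it. The RefSeq start site of ANKRD1 lies inside its GENCODE 29 span, which ends at 90921276 on chromosome 10. Most of the ANKRD1 window, with the match at 128 bases, therefore falls within that span. Of 35116 promoter windows of that length in the table, 11.9% held at least 1 match, 0.94% at least 2 and 0.0826% at least 3. The letters TGANTCA, a loose AP-1 pattern in which N is any base, were held by 6.57% of all windows. ANKRD1 was among them, with T as the middle base, 195 bases before its start. YAP1 had 1 match, 162 bases before its start. AMOTL2 and AJUBA had 1 match in 1 of their 2 listed promoters, 69 and 59 bases before the start, and WWTR1 and LATS2 had none in these windows. For AMOTL2 and AJUBA the window with the match lay inside the GENCODE 29 gene span. The window at the 5′ end of each of these genes held no match. A match is a run of letters and was not tested for binding.

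YAP1 (ENSG00000137693, chromosome 11, 102110461 to 102233423) was lower in GelMA than in collagen in both lines. With both GelMA percentages pooled, it lay 1.153-fold below collagen in PANC1 and 1.075-fold below it in BXPC3. PANC1 libraries had 7.55 and 7.47 log2 RPKM in 7.5% GelMA, 7.70 and 7.70 in 5% GelMA, and 7.77 and 7.85 in collagen. BXPC3 libraries had 7.37 and 7.38 in 7.5% GelMA, 7.40 and 7.38 in 5% GelMA, and 7.47 and 7.50 in collagen. No GelMA library reached the collagen level of its line. YAP1 fell by 0.21 ± 0.03 in PANC1 (adjusted p = 0.000424) and by 0.10 ± 0.03 in BXPC3 (adjusted p = 0.0308). The BXPC3 call was lost in 8 of 19 alternatives, with adjusted p up to 0.162 without BXPC3 collagen replicate 2, while the value stayed between -0.12 and -0.09.

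WWTR1 (ENSG00000018408, chromosome 3, 149517235 to 149736714), which encodes TAZ, moved in opposite directions in the lines. In PANC1 it was at 8.47 and 8.50 log2 RPKM in 7.5% GelMA, at 8.54 and 8.60 in 5% GelMA, and at 8.40 and 8.44 in collagen. In BXPC3 it was at 7.07 and 7.0 in 7.5% GelMA, at 6.95 and 7.02 in 5% GelMA, and at 7.29 and 7.23 in collagen. All GelMA libraries lay above collagen in PANC1 and below it in BXPC3. The gene rose by 0.11 ± 0.04 in PANC1 (adjusted p = 0.0221) and fell by 0.25 ± 0.04 in BXPC3 (adjusted p = 0.000539), and the interaction was 0.36 ± 0.05 (adjusted p = 0.00034).
The small PANC1 rise lost its call without a mean-variance trend (adjusted p = 0.0624) and without PANC1 collagen replicate 1 (0.139), 5% GelMA replicate 2 (0.069) or 7.5% GelMA replicate 2 (0.0598). Its antisense neighbour WWTR1-AS1 was at 0.36 to 1.88 log2 RPKM against 6.95 to 8.60 for WWTR1, and without a stated strand setting reads of the pair cannot be told apart.

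TEAD1 (ENSG00000187079, chromosome 11, 12674591 to 12944483) and TEAD4 (ENSG00000197905, chromosome 12, 2959330 to 3040673) are a pair of the DNA-binding factors through which YAP and TAZ act. TEAD1 ran from 6.82 to 7.15 log2 RPKM over the PANC1 libraries and from 5.37 to 5.78 over the BXPC3 libraries, and GelMA and collagen libraries overlapped in each line. Its GelMA difference was 0.02 ± 0.10 in PANC1 (95% confidence interval -0.21 to 0.26) and -0.14 ± 0.10 in BXPC3 (-0.37 to 0.10), with adjusted p = 0.877 and 0.335.
TEAD4 was at 3.55 and 3.50 log2 RPKM in PANC1 in 7.5% GelMA, at 3.47 and 3.47 in 5% GelMA, and at 3.81 and 3.82 in collagen, with no overlap between GelMA and collagen. In BXPC3 it ran from 4.34 to 4.52 in the GelMA libraries and from 4.38 to 4.41 in collagen. TEAD4 fell by 0.32 ± 0.05 in PANC1 (adjusted p = 0.000649) and was at 0.04 ± 0.05 in BXPC3 (adjusted p = 0.576), and the effects differed by -0.37 ± 0.08 (adjusted p = 0.00426).

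AMOTL2 (ENSG00000114019, chromosome 3, 134355874 to 134375479) encodes an angiomotin that binds YAP at cell junctions. Its PANC1 libraries had 5.63 and 5.60 log2 RPKM in 7.5% GelMA, 5.36 and 5.32 in 5% GelMA, and 5.75 and 5.87 in collagen, so that collagen was highest and 5% lowest. BXPC3 had 5.26 and 5.33 in 7.5% GelMA, 5.52 and 5.38 in 5% GelMA, and 5.21 and 5.31 in collagen, where the 7.5% and collagen pairs overlapped. AMOTL2 fell by 0.33 ± 0.05 in PANC1 GelMA (adjusted p = 0.000453) and was at 0.11 ± 0.05 in BXPC3 (adjusted p = 0.122). The interaction was -0.44 ± 0.07 (adjusted p = 0.00114). CCN1 and AMOTL2, a pair of YAP targets, therefore changed in opposite directions in PANC1.

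LATS2 (ENSG00000150457, chromosome 13, 20973032 to 21061547), the kinase that phosphorylates YAP, was at 4.14 to 4.24 log2 RPKM in the PANC1 GelMA libraries and at 4.28 and 4.43 in PANC1 collagen. In BXPC3 it was at 4.01 to 4.27 in GelMA and at 4.03 and 4.11 in collagen. Neither GelMA difference was called (-0.17 ± 0.07 in PANC1, adjusted p = 0.073; 0.02 ± 0.07 in BXPC3, adjusted p = 0.878). The PANC1 difference was called in 4 of 19 alternatives, among them the fit to PANC1 alone (adjusted p = 0.046).
AJUBA (ENSG00000129474, chromosome 14, 22971174 to 22982642), a LIM domain protein that binds and inhibits LATS kinases, was at 5.60 and 5.58 log2 RPKM in PANC1 in 7.5% GelMA, at 5.25 and 5.22 in 5% GelMA, and at 5.43 and 5.51 in collagen. Collagen thus lay between the GelMA percentages, and the averaged GelMA difference was -0.05 ± 0.03 (adjusted p = 0.217). In BXPC3 the GelMA libraries had 7.80 to 7.89 and collagen had 7.95 and 7.88, a difference of -0.08 ± 0.03 (adjusted p = 0.101).

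**Figure D2:**
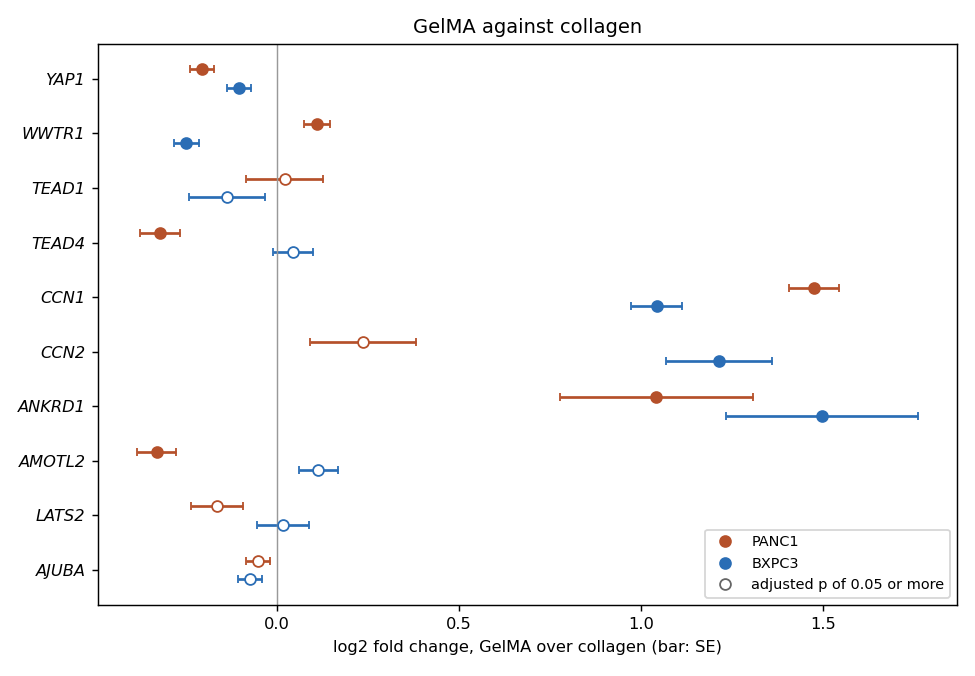
Log2 fold change of GelMA (both percentages) over collagen for the 10 genes; points are estimates, bars their SE, PANC1 is drawn above BXPC3, and open points had an adjusted p of 0.05 or more. CCN1 and ANKRD1 lay at or above 1.04 in both lines, CCN2 only in BXPC3, and the remaining 7 genes lay between -0.33 and 0.11.

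Counted together, 3 of the 10 genes rose (CCN1, ANKRD1, WWTR1) and 3 fell (YAP1, TEAD4, AMOTL2) in PANC1 GelMA, when 55.1% of all genes were called in that comparison, 27.7% higher and 27.4% lower. In BXPC3, 3 rose (CCN1, CCN2, ANKRD1) and 2 fell (YAP1, WWTR1), against 36.1% of all genes called, 19.4% higher and 16.7% lower. The median over the 10 genes was -0.015 in PANC1 and 0.030 in BXPC3, and over all genes tested it was -0.007 in PANC1 and 0.008 in BXPC3. The effect differed between lines for 5 of the 10 genes (WWTR1, TEAD4, CCN1, CCN2, AMOTL2), when it did for 39.1% of all genes, 18.5% upward and 20.6% downward. WWTR1 and CCN1 had the higher effect in PANC1, and the other 3 the lower. The shares of the 10 genes called are near those of all genes, and the median size of their change (0.22 in PANC1 and 0.13 in BXPC3) was below that of all genes (0.28 in PANC1 and 0.18 in BXPC3).

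The GelMA percentages gave a second contrast. Between 7.5% and 5% GelMA, PANC1 had ANKRD1, AJUBA and AMOTL2 higher and YAP1 lower (4 of 10 called, against 18.7% of all genes, 9.16% higher and 9.56% lower). ANKRD1 rose most, by 1.90 ± 0.30 (adjusted p = 0.00236; 1.04 on the log2(RPKM + 1) scale, adjusted p = 0.00291). AJUBA rose by 0.36 ± 0.04 (adjusted p = 0.000236), AMOTL2 rose by 0.27 ± 0.06 (adjusted p = 0.012) and YAP1 fell by 0.19 ± 0.04 (adjusted p = 0.00673).
CCN1 (0.20 ± 0.08, adjusted p = 0.112) and CCN2 (0.39 ± 0.17, adjusted p = 0.141) were not called, although their 7.5% libraries lay above their 5% libraries without overlap, and in the fit to PANC1 alone both were called (adjusted p = 0.00693 and 0.00323). The AMOTL2 call was lost without any 1 of the 4 PANC1 GelMA libraries (adjusted p up to 0.0805), and the YAP1 call without replicate 2 of 5% GelMA (0.0514) or of 7.5% GelMA (0.0629). Without replicate 2 of either percentage, only ANKRD1 and AJUBA were called.

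In BXPC3, 0 of the 10 genes were called by limma between 7.5% and 5% GelMA, when 0.0823% of all genes were (0.0443% higher and 0.038% lower). An unadjusted p under 0.05 was found for 1493 of all 15794 genes, and for 3 of the 10. Those 3 were lower at 7.5%: CCN2 (-0.67 ± 0.17, adjusted p = 0.226), CCN1 (-0.29 ± 0.08, adjusted p = 0.275) and AMOTL2 (-0.15 ± 0.06, adjusted p = 0.469). ANKRD1 was at -0.46 ± 0.30 (adjusted p = 0.693). The CCN2 value rested on the BXPC3 5% GelMA pair: it was -0.34 without replicate 1 (adjusted p = 0.409) and -1.01 without replicate 2, where it was called (adjusted p = 0.0151).

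The lines differed in this percentage effect for 5 genes, and in each the PANC1 effect was the higher one, when 8.97% of all genes differed in either direction, 4.01% with the higher effect in PANC1 and 4.96% with the lower. The PANC1 minus BXPC3 difference was 2.36 ± 0.43 for ANKRD1 (adjusted p = 0.00976; 1.47 on the log2(RPKM + 1) scale), 1.06 ± 0.24 for CCN2 (adjusted p = 0.0235), 0.49 ± 0.11 for CCN1 (adjusted p = 0.027), 0.43 ± 0.09 for AMOTL2 (adjusted p = 0.0155) and 0.28 ± 0.05 for AJUBA (adjusted p = 0.0115). ANKRD1 kept this call with any 1 library left out (adjusted p up to 0.0438). With 1 library left out the number of the 10 genes called ran from 1 to 6. It was 1 without BXPC3 7.5% GelMA replicate 1 or PANC1 5% GelMA replicate 2, 2 without PANC1 7.5% GelMA replicate 1, and 3 without BXPC3 5% GelMA replicate 1, BXPC3 7.5% GelMA replicate 2, PANC1 5% GelMA replicate 1 or PANC1 7.5% GelMA replicate 2.

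**Figure D3:**
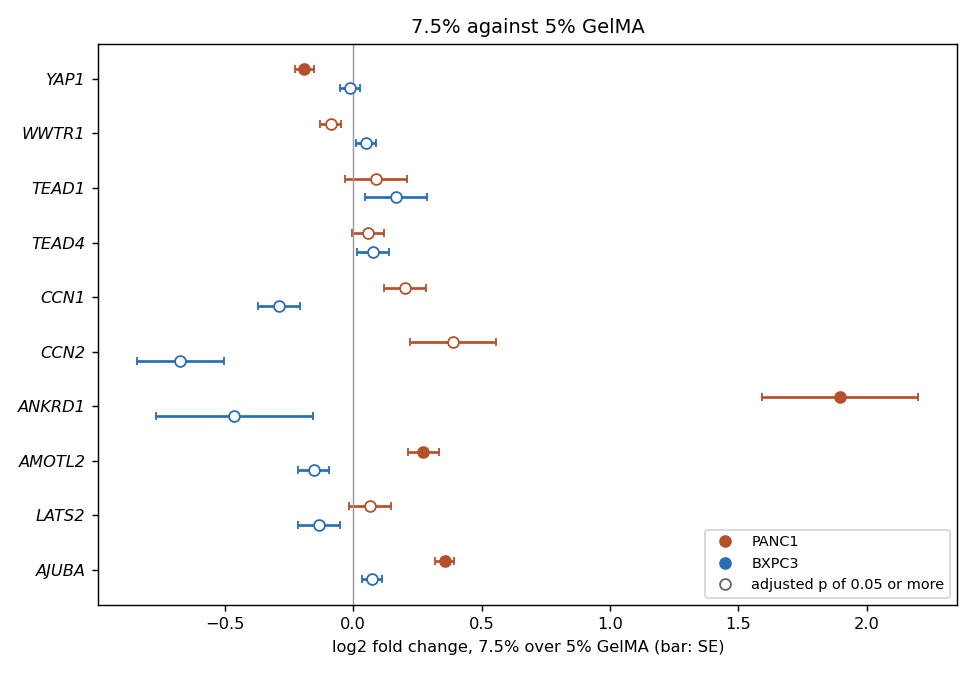
Log2 fold change of 7.5% over 5% GelMA for the 10 genes; points are estimates, bars their SE, PANC1 is drawn above BXPC3, and open points had an adjusted p of 0.05 or more. For CCN1, CCN2, ANKRD1, AMOTL2 and LATS2 the PANC1 estimate was above 0 and the BXPC3 estimate below it, and ANKRD1 in PANC1 was at 1.90.

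Between the lines, over all matrices, all 10 genes were called, 7 higher and 3 lower in PANC1, when 91.8% of all genes were, 50.0% higher and 41.9% lower. The gap was widest for CCN2, which was 155-fold higher in PANC1 than in BXPC3 (7.28 ± 0.10, adjusted p = 2.5e-13), followed by ANKRD1, which was 10.4-fold lower in PANC1 (-3.37 ± 0.18, adjusted p = 9.36e-09). On the log2(RPKM + 1) scale these were 6.75 and -2.43. AJUBA was 5.40-fold lower in PANC1 (-2.43 ± 0.02) and CCN1 4.93-fold higher (2.30 ± 0.05). WWTR1 (1.40 ± 0.02) and TEAD1 (1.37 ± 0.07) were higher in PANC1, and TEAD4 was lower (-0.82 ± 0.04).
YAP1 (0.26 ± 0.02), AMOTL2 (0.25 ± 0.04) and LATS2 (0.16 ± 0.05) differed least, and the median of all genes in this comparison was 0.12. An order of level between genes depends on the gene lengths behind RPKM, which are not stated. By the deposited values, WWTR1 was above YAP1 in PANC1 (8.49 and 7.67 log2 RPKM), and YAP1 was above WWTR1 in BXPC3 (7.42 and 7.09). TEAD1 was above TEAD4 in both lines (6.98 and 3.60 in PANC1, 5.61 and 4.42 in BXPC3). The targets thus had no shared order between the lines, since CCN1 and CCN2 were higher in PANC1 and ANKRD1 was higher in BXPC3.

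The rest of the pathway was followed through lists written from textbook knowledge. Of 29 Hippo kinases, adaptors and upstream regulators, 11 rose and 11 fell in PANC1 GelMA (75.9% called, against 55.1% of all genes), and 5 rose and 2 fell in BXPC3 GelMA (24.1% called, against 36.1% of all genes). LATS1, the second LATS kinase, was at -0.11 ± 0.08 in PANC1 and -0.10 ± 0.08 in BXPC3, neither called. NF2 (merlin), which recruits LATS kinases to the membrane, rose in PANC1 (0.58 ± 0.04, adjusted p = 1.57e-06) and in BXPC3 (0.41 ± 0.04, adjusted p = 7.07e-05). WWC1 (KIBRA), its partner, was the highest called gene of the list in BXPC3 (0.73 ± 0.07, adjusted p = 5e-05) and rose by 0.27 ± 0.07 in PANC1 (adjusted p = 0.00551).

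The angiomotins differed among themselves. AMOTL1, a paralog of AMOTL2, was at 4.22 and 4.29 log2 RPKM in PANC1 in 7.5% GelMA, at 3.55 and 3.58 in 5% GelMA, and at 2.29 and 2.55 in collagen. It rose by 1.49 ± 0.07 in PANC1 (adjusted p = 1.44e-07), where AMOTL2 fell, and was at -0.12 ± 0.07 in BXPC3 (adjusted p = 0.224). The third paralog, AMOT, was not called in either line (0.12 ± 0.24 in PANC1, -0.58 ± 0.24 in BXPC3). In PANC1 it averaged 2.48 log2 RPKM in 7.5% GelMA, 3.13 in 5% GelMA and 2.69 in collagen. Collagen thus lay between the GelMA percentages, without overlap. In BXPC3, AMOT was under 1 RPKM in every library. AJUBA's relatives WTIP (-0.82 ± 0.07, adjusted p = 9e-06) and LIMD1 (-0.26 ± 0.04, adjusted p = 0.000726) fell in PANC1 and were not called in BXPC3 (0.003 ± 0.07 for WTIP and -0.02 ± 0.04 for LIMD1). Other lowest values in PANC1 were the kinase gene TAOK1 (-0.50 ± 0.09, adjusted p = 0.000642) and STRN (-0.41 ± 0.06, adjusted p = 0.000141). The 2 called falls in BXPC3 were PTPN14 (-0.28 ± 0.09), a phosphatase that restrains YAP, and SIKE1 (-0.26 ± 0.04).

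Among 5 TEAD paralogs and cofactors, VGLL4, which competes with YAP for TEAD binding, fell in PANC1 (-0.56 ± 0.04, adjusted p = 3.64e-06) and in BXPC3 (-0.41 ± 0.04, adjusted p = 0.00011). VGLL3, a cofactor of the same family, rose by 1.15 ± 0.21 in PANC1 (adjusted p = 0.000893), where all its libraries were under 1 RPKM, and by 0.88 ± 0.21 in BXPC3 (adjusted p = 0.00825). In PANC1, TEAD2 averaged 4.31 log2 RPKM in 7.5% GelMA, 4.87 in 5% GelMA and 4.86 in collagen, so only the 7.5% pair was below collagen. Averaged over both percentages, TEAD2 fell in PANC1 (-0.27 ± 0.06) and rose in BXPC3 (0.20 ± 0.06), with an interaction of -0.47 ± 0.09 (adjusted p = 0.0026). TEAD3 fell in PANC1 (-0.27 ± 0.06) and was at -0.05 ± 0.06 in BXPC3 (adjusted p = 0.526).

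Of the other 4 CCN genes, CCN3, a matricellular relative of CCN1, rose in PANC1 by 2.29 ± 0.25 (adjusted p = 3.81e-05). Its PANC1 libraries had 1.12 and 2.02 log2 RPKM in 7.5% GelMA, 0.97 and 0.81 in 5% GelMA, and -1.42 and -0.71 in collagen. In BXPC3, CCN3 was at 2.84 to 3.36 in all libraries and its difference was 0.25 ± 0.25 (adjusted p = 0.48). CCN6 rose in PANC1 (0.58 ± 0.20, adjusted p = 0.0346) and fell in BXPC3 (-0.62 ± 0.20, adjusted p = 0.0392), with 0.594 to 2.35 RPKM over all libraries. CCN4 and CCN5 were not called in either line.

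Of 25 other YAP/TAZ targets, 8 rose and 10 fell in PANC1 GelMA (72.0% called, against 55.1% of all genes), and 8 rose and 7 fell in BXPC3 GelMA (60.0% called, against 36.1% of all genes), so the called genes had no common direction. The median over the list was 0.06 in PANC1 and 0.02 in BXPC3. Highest in PANC1 were the thrombospondin gene THBS1 (1.66 ± 0.03, adjusted p = 1.35e-09), the endothelin gene EDN1 (1.14 ± 0.12, adjusted p = 2.03e-05) and FJX1 (0.74 ± 0.09). EDN1 (0.98 ± 0.12, adjusted p = 0.000193), GADD45A (0.75 ± 0.05) and FJX1 (0.72 ± 0.09) were highest in BXPC3, where THBS1 rose by 0.34 ± 0.03 (adjusted p = 8.2e-05). GADD45A, a stress gene, fell in PANC1 by 0.56 ± 0.05 (adjusted p = 1.34e-05), an interaction of -1.31 ± 0.07 (adjusted p = 1.73e-06).
Lowest in PANC1 were IGFBP3 (-3.11 ± 0.34, adjusted p = 3.62e-05), which binds insulin-like growth factors, the caveolar coat gene CAVIN2 (-1.97 ± 0.20, adjusted p = 1.89e-05) and TNNT1 (-1.11 ± 0.11). In BXPC3, IGFBP3 (-1.78 ± 0.34) and FOXF2 (-1.41 ± 0.23) had the lowest values, each under 1 RPKM in every library there. Between 7.5% and 5% GelMA in PANC1, EDN1 (0.68 ± 0.13, adjusted p = 0.00629) and THBS1 (0.36 ± 0.04, adjusted p = 0.000243) were higher, as ANKRD1 was, while CAVIN2 (-1.98 ± 0.23, adjusted p = 0.000324) and IGFBP3 (-1.86 ± 0.39, adjusted p = 0.00942) were lower.

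**Figure D4:**
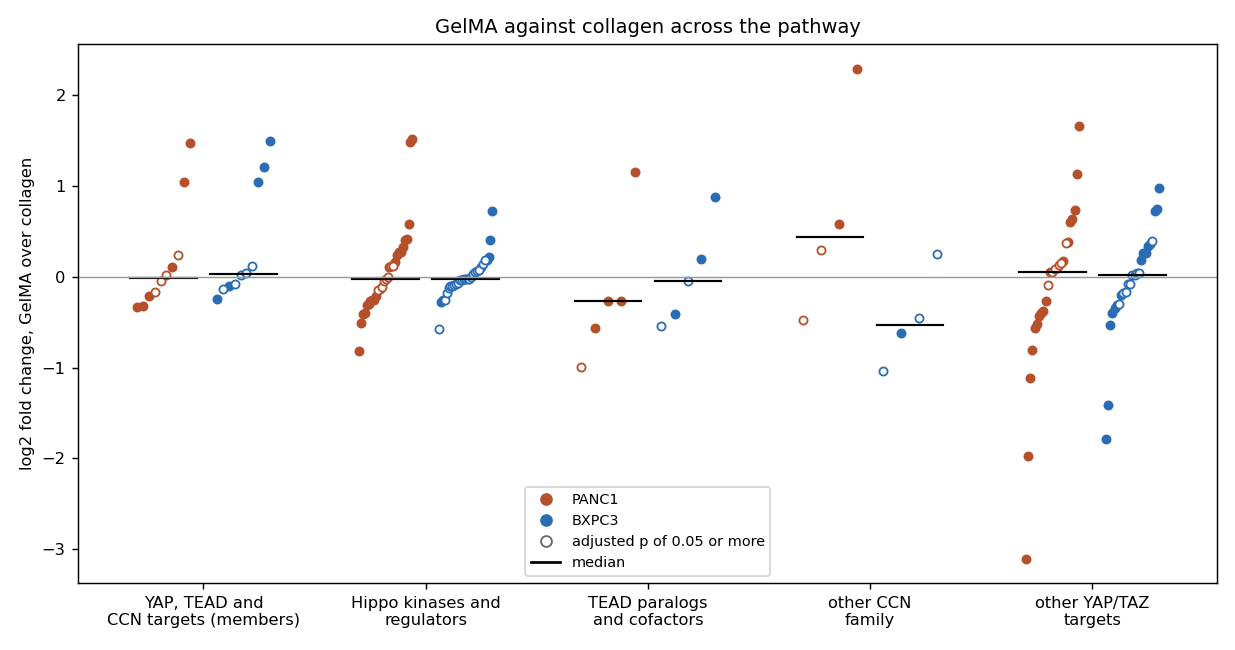
Log2 fold change of GelMA over collagen for the 10 genes and 4 lists of related genes; each point is a gene, PANC1 stands left of BXPC3, open points had an adjusted p of 0.05 or more, and bars are list medians. Points on both sides of 0 appear in every list and line, and the medians of the 10 genes lay at -0.015 in PANC1 and 0.030 in BXPC3.

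The genes whose pattern was most like that of CCN1, over the 12 libraries after subtracting each line's mean, were AIFM1 (r = 0.991), HIF1A (0.986), SC5D (0.986), DHX30 (0.985) and ZNHIT6 (0.985). HIF1A, the oxygen-regulated transcription factor, rose with CCN1 in GelMA by 1.00 ± 0.08 in PANC1 and by 0.58 ± 0.08 in BXPC3. For CCN2 they were PPP4R3A (0.952), the immediate early phosphatase gene DUSP1 (0.951), RNF103 (0.935), DDX42 (0.934) and SLC35E4 (0.928). DUSP1 was at 0.09 ± 0.04 in PANC1 (adjusted p = 0.0556) and rose by 0.62 ± 0.04 in BXPC3 (adjusted p = 6.17e-06), like CCN2 a larger difference in BXPC3. These correlations are a description, since libraries of 1 group share their matrix and 55.1% of all genes were called in PANC1 GelMA. The genes were picked for this likeness in the same libraries, so their similar GelMA differences are not separate support.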

How the data were processed

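The authors deposited log2 RPKM values for 16299 Ensembl genes in 12 libraries, and 0 columns were left unmapped. Per the submitters' processing notes, HISAT2 2.1.0, HTSeq and GRCh38 were used; no source used here gives the gene lengths, the offset before the log or the strand setting. The sorted values of the libraries were equal within 0.05 for the upper 13758 ranks, so the deposited log2 values were taken as quantile normalized, which removes changes shared by most genes and leaves depth unknown. Symbols came from a gene name table (16250 IDs) and GENCODE 29 (the other 49), which also gave positions.

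The 15794 genes that reached 1 RPKM in 2 or more libraries were fitted with limma 3.58.1 in R 4.3.3, using group means over all libraries and a mean-variance trend (6 residual and 3.89 prior degrees of freedom), with Benjamini-Hochberg adjustment per comparison. The code was tested on simulated data. Alternatives were 2 offsets, no filter, no trend, median centring, a replicate block, each line alone, and leaving out each library. Same-numbered replicates did not deviate together (correlations from -0.048 to 0.077 over 15 pairs of groups). The members, lists, naming rule (all 10 genes, the 3 highest and 3 lowest called genes of a list, paralogs of members, and the 5 genes most like CCN1 and CCN2) and tests were chosen with earlier results of these data known. Some genes of the lists are counted but not reported here by name.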

Additional observations from a re-analysis of the deposited data

Results flagged for a closer look

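The effect of GelMA against collagen differed between the lines, by the interaction term, for 5 of the 10 genes, when it did for 39.1% of all genes. As PANC1 effect minus BXPC3 effect, these differences were 0.36 for WWTR1, -0.37 for TEAD4, 0.43 for CCN1, -0.98 for CCN2 and -0.44 for AMOTL2. WWTR1 had called effects of opposite sign, CCN1 rose in both lines, CCN2 was called in BXPC3, and TEAD4 and AMOTL2 were called in PANC1.

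The effect of 7.5% against 5% GelMA differed between the lines for 5 genes as well, by 0.49 for CCN1, 1.06 for CCN2, 2.36 for ANKRD1, 0.43 for AMOTL2 and 0.28 for AJUBA. Groups of 2 libraries are too small for a search for outlying libraries.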

How the results depend on the processing

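Of 35 called values of the 10 genes, 26 kept direction and call under all alternatives run for them, 9 lost the call in at least 1, and 0 reversed. The replicate block changed 0 of 70 calls of these genes. With it, 1 gene in all was called between 7.5% and 5% GelMA in BXPC3 instead of 13, and 0 were with either offset or with BXPC3 fitted alone. Without a trend, 941 genes in all and 3 of the 10 differed between the lines in the percentage effect.

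Leaving out 1 library at a time, the genes called in all ran from 3623 to 5845 for GelMA in BXPC3 (fewest without collagen replicate 2), from 1449 to 3162 for the percentage in PANC1 (at most 1746 without any 1 of its 4 GelMA libraries), from 1 to 33 in BXPC3 (1 without any 1 PANC1 library, 6 and 33 without 5% GelMA replicates 1 and 2, 32 without either collagen replicate) and from 659 to 1651 for the difference between them (at most 873 without any 1 GelMA library but BXPC3 5% GelMA replicate 2, where it was 1314). Of the 10 genes, 2 to 5, 0 to 1 and 1 to 6 were called in the last 3 contrasts.

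Values that changed sign belonged to uncalled genes when 1 library was left out: TEAD1 (-0.124 to 0.166 for GelMA in PANC1, -0.035 to 0.213 for the percentage in PANC1, -0.214 to 0.059 for its difference between lines), TEAD4 (-0.08 to 0.04 for that difference), LATS2 (-0.04 to 0.074 for GelMA in BXPC3), and, for the GelMA effect in PANC1 minus BXPC3, ANKRD1 (-0.918 to 0.007) and AJUBA (-0.016 to 0.065). Values under 1 RPKM depend on the offset, and the precision that depth allows is unknown.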
